A study of Mus musculus with 10 samples.

Results

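Collagens are secreted proteins whose chains wind into a triple helix, and they make up much of the matrix outside cells. Fibrillar collagens form the fibrils of bone, skin and tendon, type IV collagens form the network of basement membranes, and the FACIT, beaded filament, short chain, transmembrane and multiplexin collagens link, organise or anchor those structures. At gastrulation the embryo holds basement membranes under its epithelia, while the bone and cartilage in which the major fibrillar collagens later act have not yet formed. Cytosines in CpG dinucleotides can carry a methyl group, and CpG-rich promoters are usually free of it whether or not the gene is active, whereas promoters poor in CpGs often are not.

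The genes described here are the autosomal RefSeq genes with a symbol made of Col, a number, the letter a and a number. The rule found 42 genes among 47042 autosomal genes of the annotation. Their spans with 1000 bp on either side held 7183 of the 2346489 autosomal cytosines in the table, each read at least 10 times in all 10 libraries. The libraries came from whole mouse embryos at E7.5 (gastrulation) and were made by reduced representation bisulfite sequencing, which reads mainly CpG-rich fragments and scores methylated against unmethylated reads at each cytosine. The labels name 5 control and 5 arsenic embryos, all from a second experiment, and both groups share the tissue, the stage and the DNA preparation. The name of the deposited counts marks them as F2 embryos. The sample titles do not say whether the embryos themselves or an earlier generation were exposed to arsenic. Neither the strain and sex nor the dose and time of arsenic exposure were given in the sources. Since the columns of the table carry only the numbers 1 to 10 and match no label, control and arsenic embryos were not compared. Every value below describes the 10 libraries together and says nothing about arsenic. The assay reads DNA and holds no expression of marker genes, so the tissue could not be checked that way, and levels are averages over all cell types of an embryo.

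A methylation level is the mean, over the cytosines of a region, of methylated reads divided by all reads. The pooled level sums the reads of the 10 libraries at each cytosine first, and the range gives the lowest and highest single library. The regions were kept apart, each with at least 3 cytosines: the 5' end (within 1000 bp of the gene's start), the 3' end (within 1000 bp of its end) and the body between them. Reads over the collagen genes summed to between 262629 and 354515 per library, with a read counted anew at every CpG in it. The mean level of all autosomal cytosines ran from 40.3% in library 1 to 42.8% in library 2. For 33 genes the strand was known from the RefSeq promoter sequences. For the other 9 genes (Col1a1, Col2a1, Col4a3, Col5a2, Col9a3, Col12a1, Col14a1, Col22a1 and Col26a1) the end with more assayed cytosines stands for the 5' end. Of the 42 genes, 31 had a 5' end with 3 or more cytosines, 11 a 3' end and 42 a body. The genes with no measured 5' end were Col6a1, Col6a2, Col6a3, Col6a4, Col10a1, Col12a1, Col17a1, Col20a1, Col22a1, Col24a1 and Col28a1, which make up 11 of the 42.

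The 5' ends of the collagen genes ran from nearly unmethylated, with Col5a1 at 1.77%, to more than intermediate, with Col6a6 at 56.1%. Col4a1 and Col4a2 share a window, and so do Col4a3 and Col4a4, which left 29 distinct 5' windows. Their median level was 12.2%, and the medians of single libraries ran from 11.2% to 13.2%, whereas the median over 12839 protein-coding windows was 2.93%. Levels of 20% or more were found at 10 of the 29 collagen windows, against 20.3% of the protein-coding windows. Levels under 5% were found at 6 of the 29, against 60.2%. Among the 24 genes with a known strand the median over 23 windows was 11.1%. The number at 20% or more was 4 within 500 bp of the start, where the median was 9.93%. It was 6 with a coverage minimum of 30 or with at least 10 cytosines per window. These settings leave fewer windows or cytosines, so the counts cannot be set against the 20.3%. The protein-coding share within 500 bp or with that minimum was not computed. Shares by number of cytosines are given below.

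**Figure D1:**
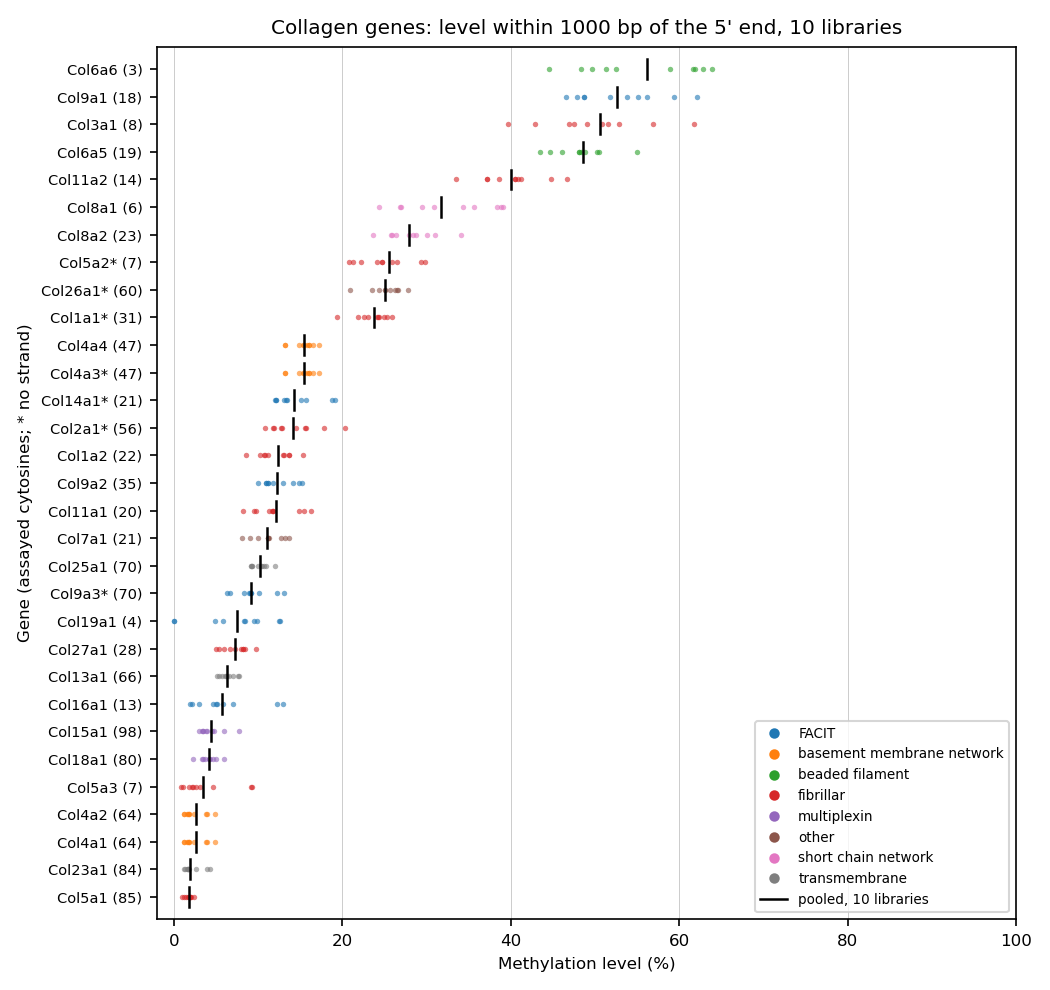
Methylation level (%) within 1000 bp of the 5' end of 31 collagen genes, one row per gene, with the number of assayed cytosines in parentheses. Points are the 10 libraries, coloured by collagen class, black bars are the pooled level, and an asterisk marks a gene without a known strand, drawn at the end with more cytosines. The rows climb from Col5a1 at 1.77% to Col6a6 at 56.1%, and the points spread more widely in the rows with few cytosines.

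The number of assayed cytosines in a window went with its level. The 13 collagen windows with 30 or more cytosines had a median of 9.19%, against 1.84% for 7592 protein-coding windows of that size, and 2 of the 13 were at 20% or more, against 4.85%. The 10 windows with 10 to 29 cytosines had a median of 13.3%, against 5.87%, and 4 of them were at 20% or more, against 31.5%. The 6 windows with 3 to 9 cytosines had a median of 28.6%, against 42.3%, and 4 of them were at 20% or more, against 68.7%. The collagen medians were therefore above those of protein-coding genes in the classes with 10 or more cytosines and below them in the class with the fewest. These are descriptions of small groups, with no test.

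**Figure D2:**
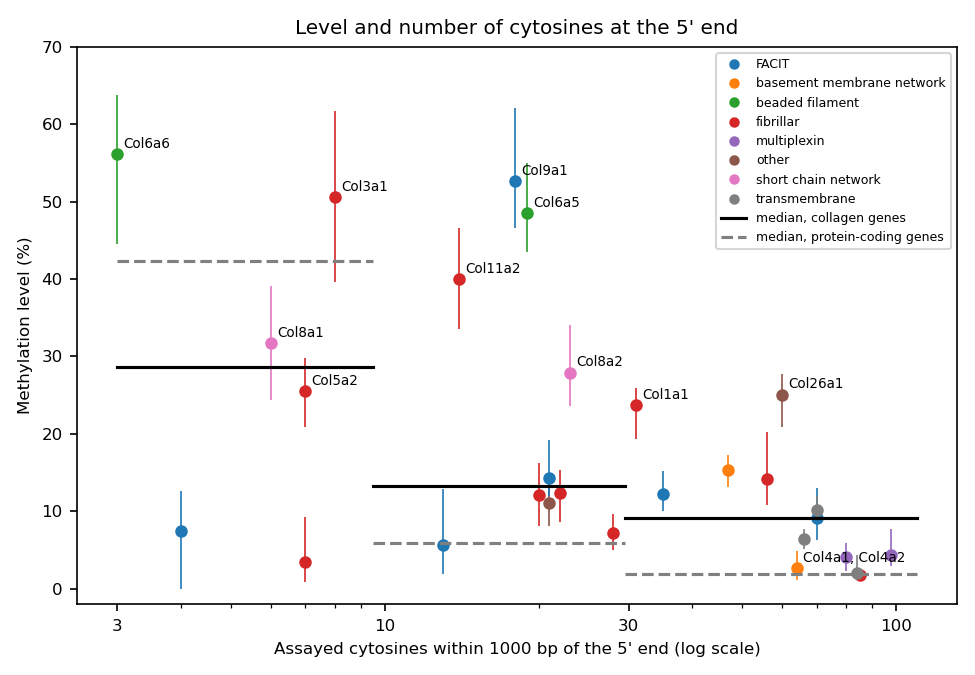
Methylation level (%) at the 5' end against the number of assayed cytosines there (log scale), for the 29 distinct collagen windows. Points are pooled levels, thin lines the range over the 10 libraries, black lines the median of collagen windows in each class of cytosine number and dashed grey lines that of protein-coding windows. The collagen median is 9.19% and the protein-coding median 1.84% in the class of 30 or more cytosines.

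Type IV collagens, the network formers of basement membranes, are encoded by gene pairs transcribed away from each other from a common stretch. Col4a1 (chromosome 8, 11198423 to 11312889, minus strand) and Col4a2 (11312805 to 11449287, plus strand) encode the chains found in nearly all basement membranes. Their annotated starts lie 84 bp apart and the spans overlap by 85 bp. Both promoters are shown because a single set of cytosines serves both genes. They are 300-base RefSeq sequences of GRCm38.p6, the assembly with mm10 coordinates, written 5' to 3' in the direction of each gene, with 250 bases before the start site and capitals at every CpG that was assayed.
Col4a1, chr8:11312777-11313076, minus strand: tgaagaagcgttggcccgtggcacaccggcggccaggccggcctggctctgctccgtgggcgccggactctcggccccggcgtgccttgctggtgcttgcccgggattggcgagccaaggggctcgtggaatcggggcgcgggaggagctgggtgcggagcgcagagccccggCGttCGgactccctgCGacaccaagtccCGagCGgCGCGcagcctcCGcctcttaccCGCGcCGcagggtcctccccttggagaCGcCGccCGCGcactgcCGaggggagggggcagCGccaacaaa
Col4a2, chr8:11312555-11312854, plus strand: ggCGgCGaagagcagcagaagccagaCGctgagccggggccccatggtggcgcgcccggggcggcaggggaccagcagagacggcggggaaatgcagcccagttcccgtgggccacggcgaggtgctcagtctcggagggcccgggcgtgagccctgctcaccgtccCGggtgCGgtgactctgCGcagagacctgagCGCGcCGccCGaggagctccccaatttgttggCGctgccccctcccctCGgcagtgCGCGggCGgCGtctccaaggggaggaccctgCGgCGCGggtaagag
The Col4a1 sequence holds 37 CG dinucleotides, 17 of them assayed, and the Col4a2 sequence holds 33, with 19 assayed. The shared 64 cytosines were at 1.13% in the lowest library, 1.78% at the median and 4.84% in the highest, and at 2.62% pooled. No single cytosine of the 64 exceeded 8.40%, and in the 85 bp where the genes overlap 24 cytosines were at 1.66%. Of 16751 reads summed over the window 2.85% were methylated (95% Wilson interval 2.61% to 3.11%). Such intervals cover counting error only, and they are too narrow, since a read counts at each CpG in it. Whether copies of a molecule were removed was not stated. With a coverage minimum of 30 the window was at 5.40%.

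The second pair, Col4a3 and Col4a4, encodes chains of the mature basement membranes of kidney, lung and inner ear. Col4a4 (chromosome 1, 82448419 to 82587034, minus strand) overlaps the lower end of Col4a3 (82586921 to 82722059) by 114 bp. Its promoter is shown for contrast with the first pair.
Col4a4, chr1:82586800-82587099, minus strand: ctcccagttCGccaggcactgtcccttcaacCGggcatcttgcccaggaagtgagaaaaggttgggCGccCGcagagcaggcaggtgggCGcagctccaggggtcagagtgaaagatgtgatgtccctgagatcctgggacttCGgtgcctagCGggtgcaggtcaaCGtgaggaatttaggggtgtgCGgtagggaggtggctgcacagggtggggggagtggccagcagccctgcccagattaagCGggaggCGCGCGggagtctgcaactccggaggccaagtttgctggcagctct
It holds 14 CG dinucleotides, of which 13 were assayed. The 47 shared cytosines were at 13.2% in the lowest library, 15.6% at the median and 17.3% in the highest, and 9 of the 47 were at 20% or more. The lowest library of this pair was above the highest library of Col4a1 and Col4a2, so the libraries of the 2 pairs did not overlap. The bodies of the 4 genes lay between 49.3% in Col4a4 and 58.2% in Col4a2.

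Fibrillar collagens spread over most of the scale, with 10 measured 5' windows at a median of 13.2%. Col5a1, whose chain starts and sizes fibrils of type I collagen, was the lowest of all collagen genes, at 0.975% in the lowest library, 1.82% at the median and 2.38% in the highest, over 85 cytosines. Col5a3, a related chain, was at 3.41% over only 7 cytosines, and its libraries ran from 0.840% to 9.30%. Col27a1, a fibrillar collagen of cartilage, was at 7.21% with no cytosine above 11.7% (11.8% within 2000 bp of the start), and Col11a1, a cartilage fibril chain, at 12.1%.

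Type I collagen makes the main fibrils of bone, skin and tendon, and type II those of cartilage. Col1a2, a chain of type I collagen, was at 8.58% in the lowest library, 12.1% at the median and 15.3% in the highest, over 22 cytosines that all lay outside the gene. Its promoter, which contains 21 of those cytosines at 11 CpGs, is shown as one of intermediate CpG content.
Col1a2, chr6:4505368-4505667, plus strand: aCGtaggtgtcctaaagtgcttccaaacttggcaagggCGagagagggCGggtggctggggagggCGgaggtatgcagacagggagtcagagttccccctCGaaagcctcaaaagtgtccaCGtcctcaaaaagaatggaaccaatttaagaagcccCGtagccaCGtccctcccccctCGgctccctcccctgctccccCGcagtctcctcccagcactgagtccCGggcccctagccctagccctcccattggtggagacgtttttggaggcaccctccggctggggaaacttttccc
Col1a1, the partner chain (chromosome 11, 94936224 to 94953042), was at 19.3%, 24.2% and 25.9% in the lowest, median and highest library over 31 cytosines at its lower end. Every library of Col1a1 was above every library of Col1a2, but the order turned with a coverage minimum of 20, where Col1a1 was at 17.2% and Col1a2 at 20.3%. Col2a1, the chain of type II collagen, was at 14.1% over 56 cytosines at its higher end, with a range of 10.8% to 20.3%.

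Col3a1, the chain of type III collagen of vessels and skin, had a window among the 5 of 29 at 40% or more. Such levels were found at 1778 of 12839 protein-coding windows. The Col3a1 promoter is shown because it holds no CG at all.
Col3a1, chr1:45311288-45311587, plus strand: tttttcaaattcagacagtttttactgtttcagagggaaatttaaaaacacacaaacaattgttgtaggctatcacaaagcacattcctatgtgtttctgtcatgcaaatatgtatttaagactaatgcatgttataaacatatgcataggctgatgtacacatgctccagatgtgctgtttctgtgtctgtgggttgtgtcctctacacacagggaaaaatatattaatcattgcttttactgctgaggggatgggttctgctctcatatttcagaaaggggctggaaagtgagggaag
The 8 assayed cytosines within 1000 bp of its start were at 39.7% in the lowest library, 49.9% at the median and 61.8% in the highest, a range of 22.1 points that was the widest of all collagen 5' ends. In reads, library 8 had 40.8% of 196 methylated (95% Wilson interval 34.2% to 47.8%) and library 6 had 61.0% of 231 (54.6% to 67.1%). Col11a2, which pairs with Col11a1 in cartilage fibrils, was at 40.03% (33.5% to 46.6%) over 14 cytosines, and Col5a2, a partner of Col5a1, at 25.5% (20.8% to 29.8%) over 7.

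All 4 measured 5' ends of beaded filament and short chain collagens were above 20%, against 20.3% of protein-coding windows at 20% or more. Windows with few cytosines often reach that level. The share was 68.7% of protein-coding windows with 3 to 9 cytosines and 31.5% of those with 10 to 29. Col6a6 and Col6a5, alpha chains of type VI collagen, were at 56.1% over 3 cytosines and at 48.6% over 19. Col6a6 ran from 44.5% to 63.9% over the libraries, and Col6a5 from 43.5% to 55.0%. In Col6a5 no cytosine was assayed between -440 bp (negative outside the gene) and 854 bp, so the level next to its annotated start was not observed. The start site of its promoter sequence lies 1820 bp inside the gene, and 30 cytosines within 1000 bp of that site were at 41.7%. The windows of the 4 other type VI genes held fewer than 3 cytosines, and Col6a1 had 2 of them at 59.6%. Col8a1 and Col8a2, short chain collagens of vessels and of the cornea, were at 31.7% (24.4% to 39.1%) over 6 cytosines and at 27.9% (23.6% to 34.1%) over 23. Of the 23 cytosines of Col8a2 18 were at 20% or more, and with a coverage minimum of 30 its window was at 40.3%.

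FACIT collagens sit on the surface of fibrils, and 1 of their 6 measured windows was at 20% or more, against 20.3% of protein-coding windows. Col16a1 was at 5.65% over 13 cytosines, Col19a1 at 7.45% over 4, Col9a3 at 9.19% over 70, Col9a2 at 12.2% over 35 and Col14a1 at 14.3% over 21. Library 4 had 0 of 57 methylated reads at Col19a1, which allows a level of up to 5.26%. Col9a1, which like Col9a2 and Col9a3 encodes a chain of type IX collagen, was the exception. It was at 46.6%, 52.9% and 62.1% in the lowest, median and highest library, over 18 cytosines that all lay upstream of the gene. Apart from that at -274 bp, these lay between -640 and -984 bp, so the level next to the start was hardly observed. Its first promoter sequence held 0 CG dinucleotides and the second, whose start lies 17614 bp downstream of the gene's annotated start, held 1. Within 1000 bp of that second start 8 cytosines were at 47.9%. Among the genes of these chains the libraries overlapped for Col9a2 and Col9a3, and those of Col9a1 lay above both.

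Of the 4 transmembrane collagens, which span the cell membrane, 3 had a measured 5' end. Col23a1 was at 1.95% over 84 cytosines (1.16% to 4.33%, and 13.3% with a coverage minimum of 30), Col13a1 at 6.35% over 66 (5.08% to 7.67%) and Col25a1 at 10.2% over 70 (9.14% to 12.0%). In Col25a1, a collagen of neurons, the average covered unlike levels on either side of the start. The 8 cytosines outside the gene were at 57.5% (50.1% to 66.4%), and the 62 inside it at 4.05% (1.82% to 5.44%). No cytosine was assayed between -535 bp (negative outside the gene) and 225 bp from the start. The place and sharpness of the change in Col25a1 were therefore not observed. The start site of its promoter sequence lies 487 bp inside the annotated gene, in the stretch of low level, and the 28 assayed cytosines of the sequence were at 1.98%.
Col25a1, chr3:130180595-130180894, plus strand: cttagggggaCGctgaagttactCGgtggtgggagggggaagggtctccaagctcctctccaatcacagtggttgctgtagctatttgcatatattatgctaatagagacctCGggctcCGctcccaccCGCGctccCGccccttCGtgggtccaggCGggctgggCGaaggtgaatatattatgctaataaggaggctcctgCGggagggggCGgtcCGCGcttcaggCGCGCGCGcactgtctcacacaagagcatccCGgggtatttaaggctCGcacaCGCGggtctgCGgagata
In Col13a1 the 16 cytosines outside the gene were at 12.9% (10.1% to 15.3%), and the 50 inside it at 4.24% (1.91% to 6.16%). Those just outside, from -3 to -96 bp, did not exceed 7.95%, so the low stretch ran across the start. The ones farther out, from -638 to -988 bp, ran from 3.27% to 65.8%. Among the 13 distinct windows with at least 3 cytosines on each side of the start, the cytosines outside the gene were above those inside it without overlap of the libraries in 7, against 25.0% of protein-coding windows, and the reverse was found in 0 of the 13, against 8.95%. Other such windows were those of Col26a1, at 38.5% outside and 15.5% inside, and Col6a5, at 53.2% and 40.6%.

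**Figure D3:**
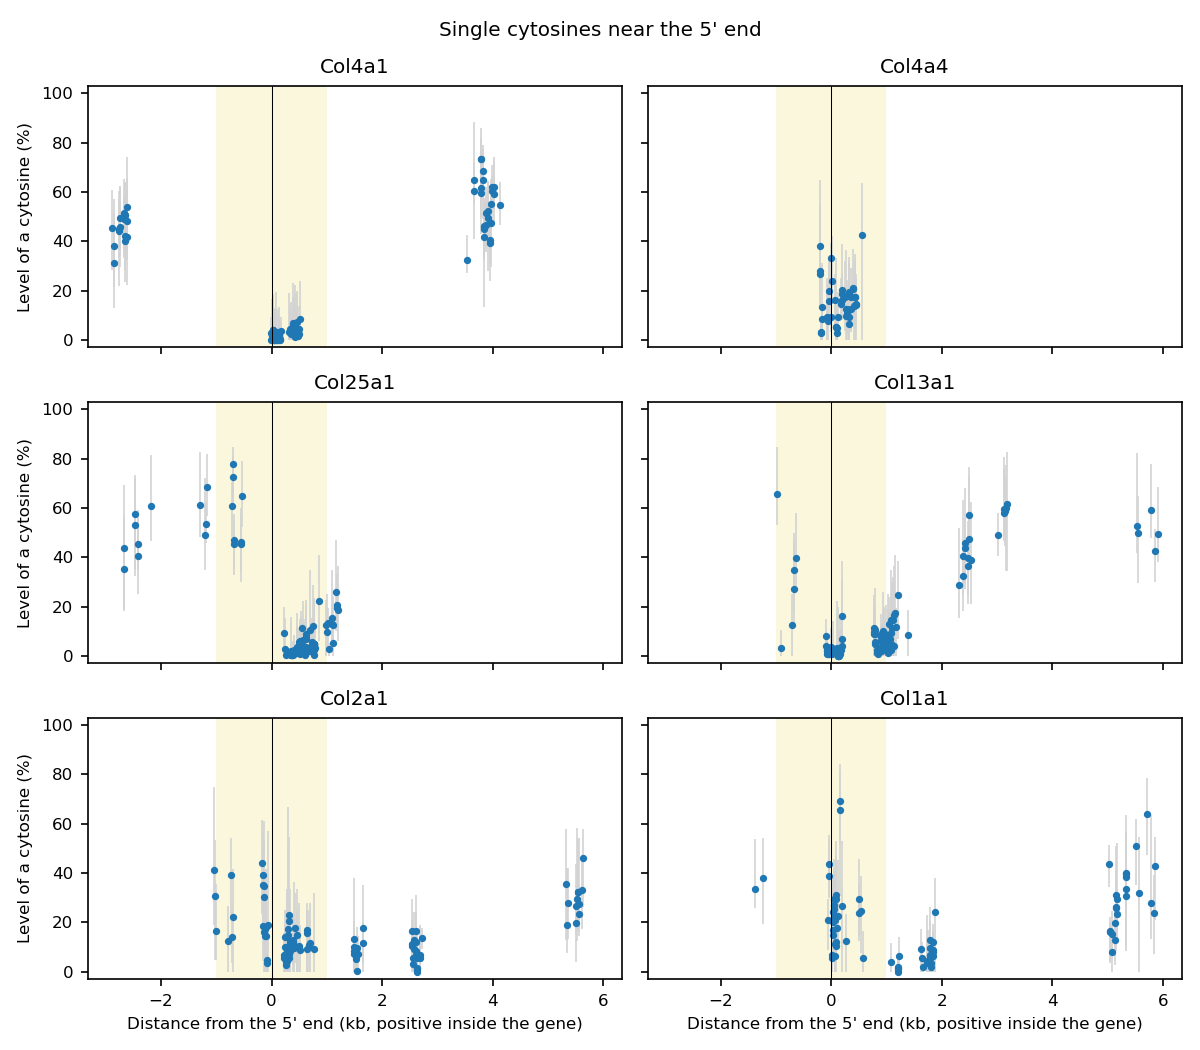
Level (%) of single cytosines against the distance from the 5' end (kb, positive inside the gene) for 6 collagen genes. Blue points are pooled levels, grey lines the range over the 10 libraries, and the shaded band the 1000 bp on either side. Within the band Col25a1 is at 57.5% outside the gene and at 4.05% inside it, with no assayed cytosine between -535 bp and 225 bp. No cytosine of Col4a1 in the band exceeds 8.40%.

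Multiplexin collagens carry the sequences of the antiangiogenic fragments endostatin and restin, and both were under 5% pooled. Under 5% also lay 60.2% of protein-coding windows, and 5726 of the 7592 with 30 or more cytosines. Col15a1 was at 4.41% over 98 cytosines (2.91% to 7.69%). Col18a1, which encodes the endostatin precursor and is known to be transcribed from separate promoters, was at 2.31% in the lowest library, 4.14% at the median and 5.93% in the highest, over 80 cytosines at its first start. Its promoters are shown together since they differed in level.
Col18a1, first start, chr10:77166481-77166780, minus strand: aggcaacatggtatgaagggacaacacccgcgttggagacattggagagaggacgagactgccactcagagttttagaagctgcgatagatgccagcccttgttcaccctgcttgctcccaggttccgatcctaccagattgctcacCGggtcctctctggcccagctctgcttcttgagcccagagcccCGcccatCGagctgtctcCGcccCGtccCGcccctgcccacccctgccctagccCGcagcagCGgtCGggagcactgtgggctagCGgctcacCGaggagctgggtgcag
Col18a1, inner start, chr10:77113656-77113955, minus strand: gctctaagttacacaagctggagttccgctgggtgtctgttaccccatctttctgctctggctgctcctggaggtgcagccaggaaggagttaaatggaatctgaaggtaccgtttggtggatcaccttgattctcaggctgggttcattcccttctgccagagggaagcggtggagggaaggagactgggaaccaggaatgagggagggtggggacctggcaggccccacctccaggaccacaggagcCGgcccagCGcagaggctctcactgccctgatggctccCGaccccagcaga
The inner start lies 52825 bp downstream. Within 1000 bp of it 25 cytosines were at 41.8% in the lowest library, 49.6% at the median and 58.2% in the highest, so the libraries of the starts did not overlap. The first sequence holds 16 CG dinucleotides and the inner one 6. Col7a1, the anchoring fibril collagen of skin, was at 11.1% over 21 cytosines, and Col26a1 at 25.1% over 60.

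Over the 24 genes with a measured 5' end and a promoter sequence, the number of CG dinucleotides in the 300 bases and the level of the window had a Pearson r of -0.56 and a Spearman rho of -0.65. This is a description across genes, 2 of which share a window, and CpG number also sets how many cytosines the assay reads. The 36 promoter sequences of 33 collagen genes held a median of 12 CG dinucleotides (searched as the letters CG, which read alike on both strands), against 14 in 20085 sequences of protein-coding genes. Of the collagen sequences 25.0% held 20 or more, against 37.1%, and 8.33% held none, against 4.40%.

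Distance profiles showed where the dip of methylation lay. In bins of 500 bp with 3 or more cytosines, the median over genes was 12.3% just outside the 5' end (15 genes), 8.42% just inside it (21 genes) and 11.8% at 500 to 999 bp (17 genes). Protein-coding genes had medians of 1.61%, 1.31% and 3.26% in those bins. Both genes of a head-to-head pair were entered, each from its own start, though they share cytosines. At 1500 to 1999 bp inside the gene the collagen median was 21.1% over 6 genes, against 29.1% for protein-coding genes. In the bin from 1000 bp outside the gene it was 53.5% over 7 genes, against 11.9%.

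**Figure D4:**
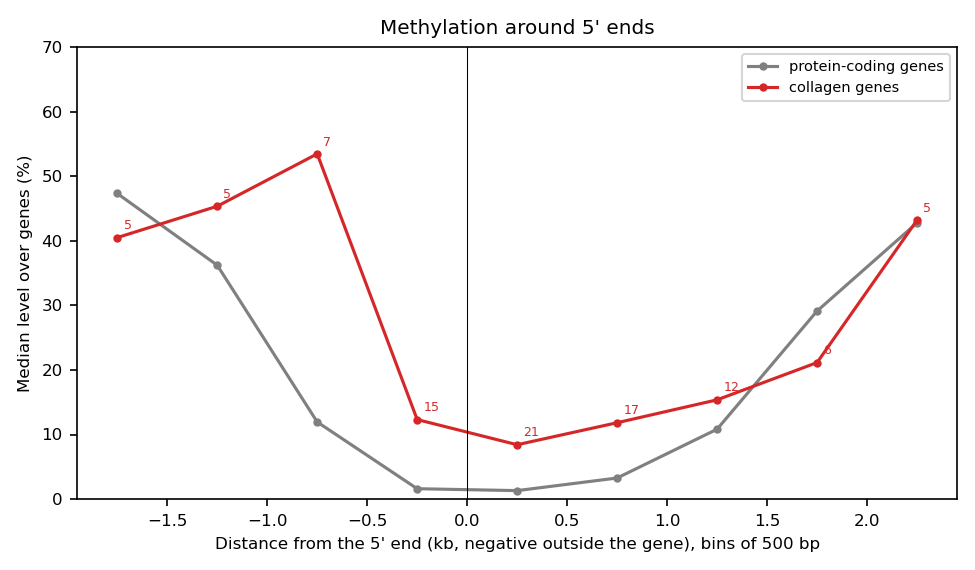
Median pooled level (%) over genes in bins of 500 bp, against the distance from the 5' end (kb, negative outside the gene). Red is collagen genes, with the number of genes at each point, and grey is protein-coding genes. Only bins with 5 or more collagen genes are joined, and the collagen curve lies at 8.42% in the first bin inside the gene, where the protein-coding curve is at 1.31%.

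Gene bodies ran from 12.9% in Col12a1 to 72.7% in Col10a1. The median over the 42 bodies was 54.5%, against 57.6% for 14112 protein-coding bodies, and 38 of the 42 were at 40% or more. Under 20% lay 1 body, against 9.12% of protein-coding bodies, and under 40% lay 4, against 21.3%. Col10a1, the collagen of hypertrophic cartilage, had the most methylated body, at 65.5% in the lowest library, 73.3% at the median and 77.5% in the highest, over 15 cytosines. Col17a1, a collagen of the hemidesmosomes that hold skin cells to the basement membrane, followed at 66.7% (63.9% to 69.95%) over 98 cytosines. The next were Col6a2 at 63.7% and Col6a6 at 63.4%.

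The 4 bodies under 40% each held stretches of low level. Col12a1, a FACIT collagen of tendon, had a body at 11.9%, 12.9% and 14.6% in the lowest, median and highest library over 149 cytosines. In 1 tile of 1000 bp (chromosome 9, 79717988 to 79718987), 2154 bp inside the higher end of the gene, 73 cytosines were at 1.46%, and the next tile was at 7.21% over 38. Neither end of Col12a1 had 3 assayed cytosines. Without its 3 tiles under 20% the body was at 48.6%. Col8a2 had a body at 22.5% (21.3% to 23.8%), with 71 cytosines at 3.12% in a tile 14 kb downstream of its start (chromosome 4, 126300795 to 126301794) and 12 and 21 cytosines at 1.02% and 2.68% in neighbouring tiles from 9 kb. Without these tiles it was at 47.5%. Col1a1 had a body at 31.8% (29.1% to 34.0%), with 24 cytosines at 6.13% in the tile next to its 5' window, and Col9a2 one at 34.7% (31.2% to 38.4%), with 28 cytosines at 17.7% in a tile 13 kb downstream.

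Counted over all collagen bodies, 17 of 226 tiles with 10 or more cytosines were under 20%, in 9 genes, a share of 7.52%. The share in protein-coding bodies was 17.5%. Col2a1 had 3 of the 17 tiles, at 8.11% and 8.89% within 3 kb of its 5' end and at 15.4% from 11 kb.

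Of the 11 genes measured at the 3' end, 10 were at 40% or more there, against 3152 of 4221 protein-coding windows. The median was 60.3%, against 59.4% for 4221 protein-coding windows. Col17a1 was the highest, at 82.8% in the lowest library, 84.8% at the median and 89.9% in the highest, over 11 cytosines, each of them above 80%. Col4a2 followed at 68.5% (65.5% to 74.4%), Col8a2 at 65.0% and Col6a6 at 63.5%, while Col27a1 at 49.2%, Col7a1 at 48.3% and Col9a2 at 43.7% were lower, over 4 to 7 cytosines each. Col6a2 had the best measured 3' end, with 77 cytosines at 62.7% (59.8% to 67.8%). The exception was Col23a1, whose 41 cytosines were at 0.407% with a range of 0.122% to 0.687%. The start of another gene, Phykpl, lies 729 bp beyond the 3' end of Col23a1, inside the same window. Under 20% was thus 1 of 11 collagen 3' ends, against 17.9% of protein-coding ones.

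**Figure D5:**
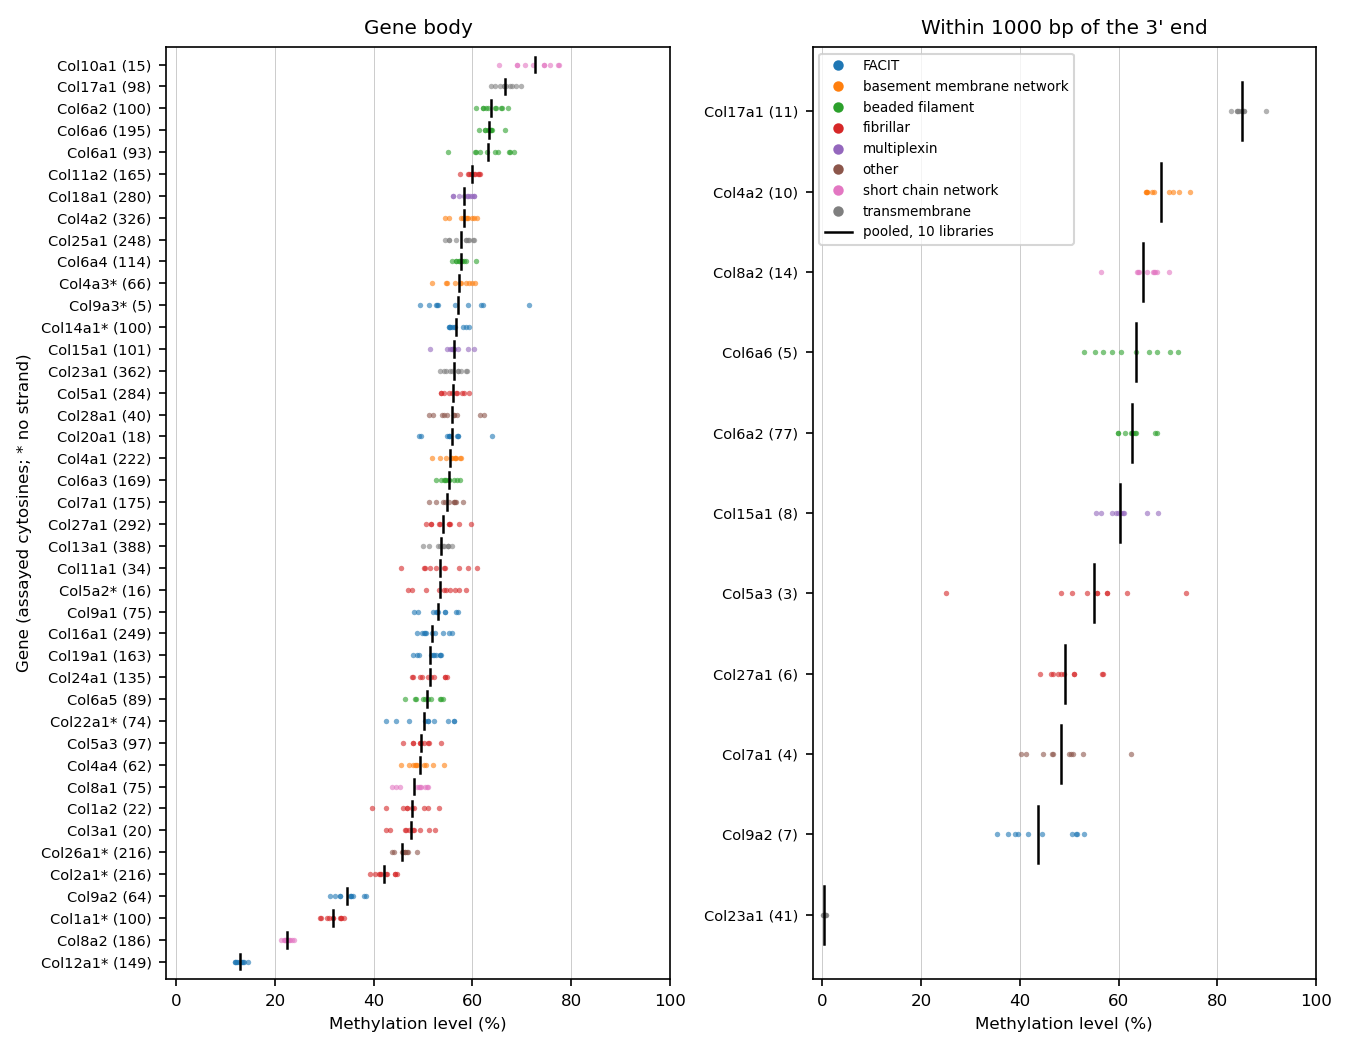
Methylation level (%) in the bodies of 42 collagen genes (left) and within 1000 bp of the 3' end of 11 (right), with the number of assayed cytosines in parentheses and an asterisk at genes without a known strand. Points are the 10 libraries, coloured by class, and black bars the pooled level. Most bodies gather near the median of 54.5%, with Col12a1 at 12.9% and Col8a2 at 22.5% below them, and Col23a1 stands alone at 0.407% on the right.

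Within genes, the body was above the 5' end in most cases. The median difference over the distinct windows was 41.4 points. In 20 of the 31 genes measured at both, the body was at least 20 points above the 5' end in every one of the 10 libraries, against 73.5% of 10881 protein-coding genes. The widest differences were 55.6 points in Col4a2, 54.3 in Col5a1, 54.3 in Col23a1 and 54.2 in Col18a1, and the libraries of these genes ranged from 51.5 to 59.2 points. In 5 of the 31 genes the libraries of the 2 regions overlapped, against 1147 of 10881 protein-coding genes. These 5 were Col8a2, Col3a1, Col9a1, Col6a5 and Col6a6. Col8a2 was the only gene with its 5' end above its body in all 10 libraries, with a body minus 5' end of -5.39 points pooled and of -10.3 to -1.08 points over the libraries, against 5.65% of protein-coding genes. In Col3a1 the body minus 5' end was -3.04 points pooled, but it was above 0 in 4 libraries.

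The libraries differed little over the collagen genes as a whole. The mean of the 29 windows at the 5' end ran from 17.3% in library 9 to 20.2% in library 6, and that of the 42 bodies from 49.7% in library 9 to 54.2% in library 2. Libraries 1 and 9 were each the lowest at 15 of the 42 bodies, and library 4 was the highest at 13 and library 2 at 11. These libraries were also at the ends of the whole table, with means over all autosomal cytosines of 40.3% and 40.4% in libraries 1 and 9 and of 42.7% and 42.8% in libraries 4 and 2, and the part of that shift in the collagen values was not tested. Ranges of 10 points or more were found at 9 of the 29 windows at the 5' end, against 18.4% of protein-coding windows. The widest were those of Col3a1 at 22.1 points, Col6a6 at 19.4, Col9a1 at 15.5 and Col8a1 at 14.7, with 147, 78, 565 and 199 reads in the least read library.

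Genes that make, cut, bind or accompany collagens were described by lists chosen with earlier results of these data known. Of 28 genes for collagen processing 24 had a measured 5' end, with a median of 2.75%, against 2.93% for protein-coding windows, and 3 of them were at 20% or more, against 20.3%. P4hb, a subunit of the prolyl hydroxylase that stabilises the triple helix, was at 1.30%, and P4ha1, another subunit, at 1.18%. The related genes P4ha2 and P4ha3 were higher, at 17.9% over 34 cytosines and at 23.0% over 18. Lox, which crosslinks collagen, was at 8.98%, and Pcolce, which enhances the cutting of procollagen, was the highest at 36.6%. Of 9 collagen receptors 6 were measured, with a median of 9.90%, from the integrin gene Itgb1 at 1.15% to Itga10 at 58.8% over 3 cytosines. Of 16 partners in the basement membrane 13 were measured, with a median of 3.65%, and 5 were at 20% or more, beside the same 2.93% and 20.3% of protein-coding windows. Hspg2 (perlecan), Nid2 (nidogen) and Lamc1 (a laminin chain) were at 1.08%, 1.75% and 2.12%, and Lama1, a laminin chain of early basement membranes, was at 75.2% (73.0% to 77.9%) over 15 cytosines. The genes with no measured 5' end were Plod2, Serpinh1, Loxl2 and Loxl4, then Ddr2, Gp6 and Lair1, and then Lama2, Lama3 and Lamb3.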

How the data were processed

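Read counts per CpG cytosine were taken as deposited: coverage, methylated and unmethylated counts for 10 libraries, not normalized, per the file headers. Per the submitters' processing notes, Trim Galore, Bismark and methylKit were used with build mm10. Versions, settings and deduplication were not stated in those notes, and reads counted more than once would make the counts look more precise than they are. None of the 30 count columns could be matched to a sample, so the planned permutation test of control against arsenic and its replicate block were not run. Levels are means over cytosines of methylated reads over coverage, with both strands of a CpG kept apart. Wilson 95% intervals and the limit for 0 methylated reads (3 counts) were taken from summed reads. Genes, starts and strands came from RefSeq GRCm38.p6. Of 178257 assayed cytosines in its promoter sequences, 99.995% fell on a CG. Identical windows were counted once in medians, but in the distance profiles each gene of a head-to-head pair was entered from its own start. Percentages of protein-coding genes were obtained by the same rule. The window code was tested on simulated data. Members, classes and lists were chosen with earlier results of these data known, and the stretches of low level, the sides of windows and the inner starts were chosen after levels were seen. Named genes were the 6 highest and 6 lowest 5' ends, the 4 highest and 4 lowest bodies and 3' ends, the 4 widest ranges and differences, 5' ends above their body, the pairs and 7 preset chains. Other members are named after their values were seen. Alternatives were coverage minimums of 20 and 30, distances of 500 and 2000 bp, summed reads, at least 10 cytosines, summed strands, each library left out, and, added after the data were seen, known strand only and the start sites of the promoter sequences. Python 3.11.15, NumPy 2.4.6, pandas 2.3.3, SciPy 1.17.1 and Matplotlib 3.10.9 were used.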

Additional observations from a re-analysis of the deposited data

Results flagged for a closer look

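Over 82 distinct windows and bodies of collagen genes, 5 had 1 library far from the other 9 by Dixon's criterion, which chance alone would meet in about 1 in 20 windows. At the 3' end of Col17a1 library 4 was at 89.9%, with the next at 85.5%. At the 3' end of Col5a3 library 8 was at 25%, with the next at 48.4%, over 3 cytosines and 36 reads. At the 3' end of Col8a2 library 10 was at 56.4%, with the next at 63.6%. In the body of Col20a1 library 8 was at 64.0%, with the next at 57.1%, and in the body of Col6a6 library 4 was at 66.6%, with the next at 63.9%.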

How the results depend on the processing

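No paired analysis was possible because the numbered columns match no sample label. With 1 library left out, the median at the 5' end was 11.95% to 12.4%, at the 3' end 59.6% to 60.9%, in the body 54.2% to 54.8%, and the median difference 40.4 to 42.5 points; 10 windows were at 20% or more each time, and the paired genes were at 2.38% to 2.75% (Col4a1 and Col4a2) and 15.2% to 15.6% (Col4a3 and Col4a4). The median at the 5' end moved by more than the SD of the libraries to 14.0% with a coverage minimum of 20, 9.93% within 500 bp, 15.6% within 2000 bp, 13.2% with reads summed and 11.1% with known strand. The count at 20% or more was 6 with a minimum of 30, 4 within 500 bp and 6 with at least 10 cytosines, settings that leave fewer windows or cytosines. The median difference was 36.7 points with a minimum of 20, 38.6 within 500 bp, 31.9 within 2000 bp and 43.9 with known strand. The body median was 50.3% within 500 bp, the 3' median 56.4% within 2000 bp and 64.98% with at least 10 cytosines, and the Col4a1 and Col4a2 window 5.40% with a minimum of 30. The cause of these shifts was not tested. Among single genes named, 351 of 425 other values stayed within the SD of the libraries, and the 5' end of Col23a1 was at 13.3% with a minimum of 30.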

Other observations

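The X-linked pair of type IV collagen genes, outside the autosomal rule, was measured too. Col4a5 was at 7.58% (5.27% to 10.7% over the libraries) at its lower end, over 11 cytosines, and at 49.7% in its body. Col4a6 was at 16.1% (11.9% to 18.5%) at its higher end, over 8 cytosines, and at 61.5% in its body.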
